A study of Mus musculus with 19 samples.

Results

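The livers of mice with the genotype code TG were set against those of WT mice, both on a normal diet (ND), 3 arrays against 3 of 19 arrays in the series. The members were chosen by the sample titles, which end in TG_ND or WT_ND, and the comparison was read across 22180 genes that the array annotation pairs with a single symbol. Total RNA from whole liver was hybridised to Affymetrix arrays, 1 array a sample, and the mice were 2 to 3 months old and had been on their diet for 4 weeks. The series is about Kcp, the Kielin/chordin-like protein, and the labels do not spell out the codes TG and KO; TG is read here as transgenic for Kcp, and the measured level of Kcp, given first, checks that reading. The promoter that drives it, the number of lines, the strain, the sex and the day of harvest are not given in the sources used here. Beside these groups stand TG mice (4 arrays) and WT mice (3 arrays) on a high-fat diet (HFD), and KO mice on ND (3 arrays) and on HFD (3 arrays), all of the same age and time on diet, whose levels are given only where they help to place a difference.

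Kcp is a secreted protein with many cysteine-rich repeats. Such repeats bind growth factors of the transforming growth factor beta superfamily outside the cell, and Kcp is known to strengthen signalling by bone morphogenetic proteins (BMPs) and to weaken that by TGF-beta and activin. BMPs act through receptor kinases and one branch of the SMAD proteins, and in liver they set the level of hepcidin, the hormone that limits iron uptake. TGF-beta and activins use the other SMAD branch and are best known in liver for scar formation by stellate cells. The liver also holds Kupffer cells, the resident macrophages of the sinusoids, whose receptors clear particles, complement-coated microbes and old red cells.

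Values are log2 expression per probe set, on the scale that the submitters deposited. The median over all probe sets lay between 0.995 and 1.049 on the ND arrays. Correlations over all 41345 probe sets were 0.9787 to 0.9793 among TG arrays, 0.9764 to 0.9768 among WT arrays and 0.9722 to 0.976 between TG and WT arrays. Levels below 2, where 56.5% of the genes had their mean, are called dim here. The tissue label was borne out by albumin (Alb), at 12.28 to 12.37 in TG and 12.29 to 12.31 in WT livers, while 12 of 13 markers of blood, fat, pancreas and muscle stayed at 2.36 or below on all 6 arrays. The other, the pancreas gene Ctrb1, was at 1.23, 1.17 and 1.14 in TG livers, against 1.53, 3.18 and 1.57 in WT livers, with WT replicate 2 the highest (adjusted p = 0.625).

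Kcp was measured at 5.72, 5.35 and 5.60 in TG livers, against 2.41, 2.82 and 2.42 in WT livers. All 3 TG arrays stood far above all 3 WT arrays, and no array lay between. KO livers on ND averaged 2.03 (the probe set may lie outside the deleted part, which is not given in the sources used here). The difference between TG and WT was 3.01 (SE 0.20, adjusted p = 4.54e-08). Here and below the SE is the moderated standard error and the adjusted p the two-sided Benjamini-Hochberg value over all 22180 genes from limma, a linear model fitted to all 19 arrays. A gene is said to have risen, fallen or passed at an adjusted p under 0.05. Of the 20 genes that flank Kcp on chromosome 6 of the mouse assembly GRCm38.p6, 10 on each side, 1 passed. This was Smo, the signal transducer of the Hedgehog pathway and the third gene beyond Kcp, with 4.23, 4.47 and 4.97 in TG livers, against 5.25, 6.24 and 5.79 in WT livers. It fell by 1.21 (SE 0.26, adjusted p = 0.0255), and no longer passed in 4 of the 6 fits that left out 1 array, with an adjusted p of up to 0.153 (WT ND replicate 2 left out). Smo was singled out after its value was seen, and where the transgene lies is not given in the sources used here.

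Across all genes 289 passed (1.3%), of which 205 rose (0.924%) and 84 fell (0.379%) in TG livers. At an unadjusted p under 0.05 the count was 2212 genes (9.97%). Among the 289 the TG and WT arrays did not overlap for 288, against 15.8% of all genes. Most of the changes were of moderate size. Of the rises 137 were of at least 1 on the log2 scale, 31 of at least 2 and 13 of at least 3, with a median of 1.16. The falls included 46 of at least 1, 16 of at least 2 and 7 of at least 3, with a median of -1.13. The median difference over all genes was -0.003. Predicted genes, pseudogenes and non-coding RNAs made up 15 of the rises and 23 of the falls. Leaving out 1 array lowered the total of 289 to between 165, without TG ND replicate 3, and 226, without TG ND replicate 1; it was 187 without TG ND replicate 2, 221 without WT ND replicate 1, 176 without WT ND replicate 2 and 180 without WT ND replicate 3.

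The lists of the BMP and TGF-beta system itself gave at most 1 call each, Kcp included, against 1.3% of all genes that passed. Among the secreted antagonists and modulators, such as noggin, gremlin and chordin, Kcp was the only 1 of 16 measured genes to pass. Chordin (Chrd), the relative after which Kcp is named, had 1.75, 1.50 and 1.99 in TG livers, against 1.68, 1.24 and 1.24 in WT livers. These ranges overlapped and the difference of 0.36 did not pass (adjusted p = 0.69). Follistatin (Fst), an activin inhibitor, scattered widely in both groups, with 3.84, 3.34 and 2.75 in TG livers, against 3.61, 2.52 and 1.68 in WT livers.

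Of the 19 genes of the ligand list, which also holds the protease gene Bmp1, 1 rose. Inhba, which encodes the activin A subunit, was at 4.90, 5.32 and 5.47 in TG livers, against 3.49, 4.06 and 3.71 in WT livers. The lowest TG array lay above the highest WT array, and the rise was 1.48 (SE 0.23, adjusted p = 0.00188). Gdf2, the liver-made BMP9, was at 4.72, 4.47 and 4.84 in TG livers, against 3.87, 3.77 and 4.46 in WT livers. Its arrays did not overlap either, but the difference of 0.64 did not pass (adjusted p = 0.132); it did so without WT ND replicate 3 (adjusted p = 0.0337). Tgfb1 likewise lay higher in each TG array, with 5.17, 5.01 and 4.96 in TG livers, against 4.61, 4.32 and 4.10 in WT livers, without passing (difference 0.70, adjusted p = 0.181). The hepatocyte activin subunit Inhbe stood on the other side, with 7.12, 7.16 and 6.68 in TG livers, against 7.67, 8.13 and 8.35 in WT livers (difference -1.07, adjusted p = 0.257).

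Of 16 receptors and co-receptors 1 passed. Tgfbr2, the type II receptor that binds TGF-beta, was at 4.21, 4.30 and 4.26 in TG livers, against 3.08, 3.21 and 3.35 in WT livers. The groups were tight and apart, and the rise was 1.04 (SE 0.17, adjusted p = 0.00217). The WT arrays were also below all 16 other arrays of the series for this gene, with a mean of 4.01 in KO livers on ND. The BMP receptor Bmpr1a had 4.92, 4.87 and 4.82 in TG livers, against 5.15, 5.09 and 4.97 in WT livers, and hemojuvelin (Hjv), the BMP co-receptor of the hepcidin pathway, 7.15, 7.12 and 7.01 in TG livers, against 7.25, 7.34 and 7.54 in WT livers. Both were a little lower in every TG array, by 0.20 and 0.28, and neither passed (adjusted p = 0.674 and 0.556). None of the 10 SMADs and SMAD regulators passed, nor did any of the 13 BMP target genes.

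The BMP targets lay slightly lower in TG livers, with a negative difference for 10 of 13 and a median of -0.19, which was -0.09 without WT ND replicate 2. Id3, a direct BMP target that blocks helix-loop-helix factors, was at 5.01, 5.59 and 5.06 in TG livers, against 5.75, 5.88 and 5.68 in WT livers. The WT arrays were also above all 16 other arrays of the series for this gene, with a mean of 5.09 in KO livers on ND. The TG and WT groups did not overlap, yet the difference of -0.55 missed the threshold (adjusted p = 0.228). Id1 showed the same order at a lower level, with 2.22, 2.33 and 2.25 in TG livers, against 2.43, 2.69 and 2.50 in WT livers (difference -0.27, adjusted p = 0.753). Hepcidin (Hamp) was among the brightest genes of the array, at 11.20, 11.38 and 11.39 in TG livers, against 11.69, 11.67 and 11.10 in WT livers. WT replicates 1 and 2 were above every TG array and WT replicate 3 below them all, so that the difference of -0.16 was within the spread (SE 0.25, adjusted p = 0.925). The inhibitory Smad7 and Smad6, themselves targets, differed by -0.19 and 0.20 (adjusted p = 0.866 and 0.799).

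Of 12 targets of TGF-beta, 1 rose. Tgfbi, a matrix protein named for its induction by TGF-beta and abundant in macrophages, was at 7.20, 6.99 and 7.14 in TG livers, against 6.24, 6.23 and 6.17 in WT livers. The arrays of both groups were tight, and the rise was 0.90 (SE 0.13, adjusted p = 0.000983). Ski, a repressor of SMAD signalling, was higher in every TG array by 0.48 without passing (adjusted p = 0.238). The collagen gene Col1a2 differed by 0.29 (adjusted p = 0.72). None of the 29 genes of the extracellular matrix list passed (median 0.14, and 0.28 without TG ND replicate 1). That list does not hold Tgfbi, nor the matrix genes Dcn and Ecm1, which rose and are given with the stellate cell genes. Among 16 iron genes Hmox1 and Slc39a14 rose, against 0.924% of all genes that rose, and both are described below.

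**Figure D1:**
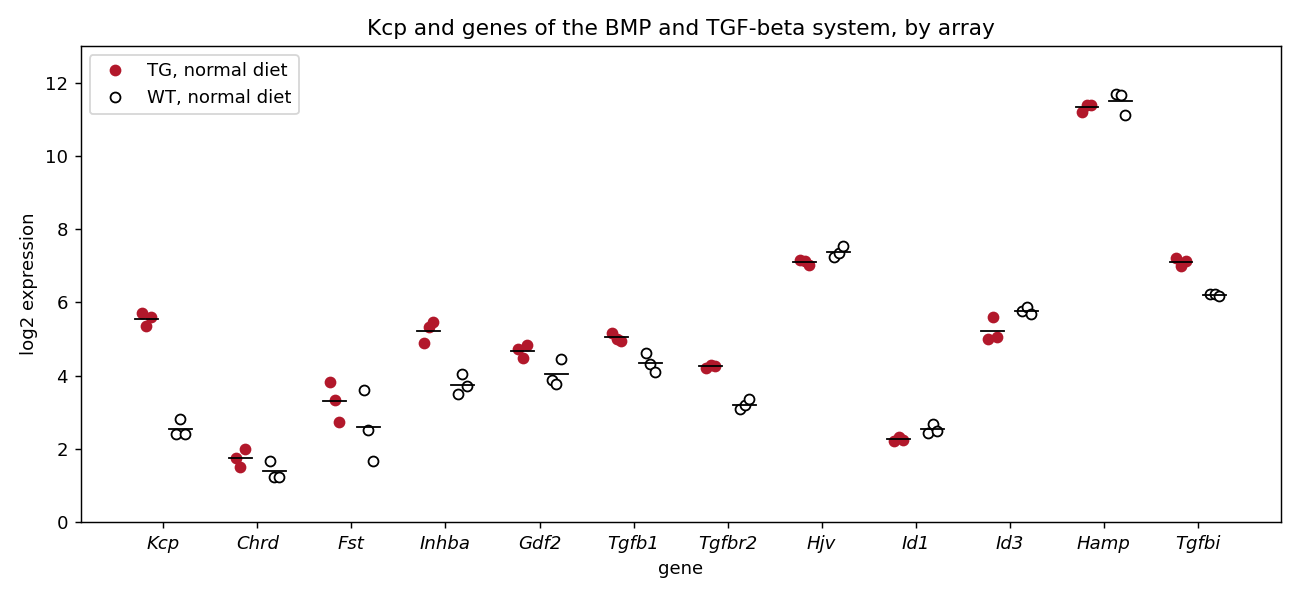
Log2 expression (vertical axis) of Kcp and 11 genes of the BMP and TGF-beta system in TG livers (filled circles, left) and WT livers (open circles, right) on the normal diet, 1 point an array and a bar at each mean (n = 3 each). Kcp, Inhba, Tgfbr2 and Tgfbi are apart between the groups and passed, and the other 8 genes did not pass.

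Many macrophage genes rose. Of 16 Kupffer cell markers 8 rose and none fell, with a median difference of 1.02, and of 25 general macrophage markers 14 rose and none fell, with a median of 1.13, against 0.924% of all genes that rose. The mean log2 level of the Kupffer list was 6.05 to 6.34 in TG livers, against 5.13 to 5.17 in WT livers, and that of the general list 4.43 to 4.92 in TG livers, against 3.57 to 3.73 in WT livers. In whole liver, more cells of a type and more RNA per cell cannot be told apart. The lists share no gene, and together 22 of their 41 markers rose, by 1.09 to 3.21, which was 10.7% of all genes that rose. Of the 41, 29 were higher in every TG array than in any WT array, against 8.14% of all genes. Leaving out each of the 6 arrays in turn left 6 to 8 calls in the Kupffer list and 10 to 13 in the general list, with the fewest in the Kupffer list without TG ND replicate 3 or WT ND replicate 2 and in the general list without TG ND replicate 3 or WT ND replicate 3.

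Marco, a scavenger receptor of macrophages for bacteria and particles, had the largest rise of these lists, at 6.94, 6.77 and 6.72 in TG livers, against 3.84, 3.65 and 3.32 in WT livers. The TG arrays were within a narrow band and far above WT, with a difference of 3.21 (SE 0.39, adjusted p = 0.000147). Clec4f, a lectin that in mice is found on Kupffer cells alone, was at 7.23, 7.32 and 7.72 in TG livers, against 6.09, 5.84 and 6.06 in WT livers. The highest WT array was still well below the lowest TG array, and the rise was 1.43 (SE 0.18, adjusted p = 0.000263). Vsig4, the Kupffer cell receptor for complement C3b, was at 6.67, 6.78 and 7.35 in TG livers, against 5.10, 4.91 and 5.29 in WT livers and rose by 1.83 (SE 0.31, adjusted p = 0.00334). Folr2, a receptor for folate on macrophages, rose by 1.82 (adjusted p = 0.000688) and the secreted scavenger protein Cd5l by 1.73 (adjusted p = 0.0019).

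Timd4 and Cd163 also rose, with less stable calls. Timd4, a receptor for dying cells that marks long-lived Kupffer cells, was at 4.80, 4.78 and 5.31 in TG livers, against 3.86, 3.77 and 3.79 in WT livers. It rose by 1.16 (adjusted p = 0.0149) and no longer passed in 3 of the 6 fits that left out 1 array, with an adjusted p of up to 0.0956 (TG ND replicate 3 left out). Cd163, the haemoglobin scavenger receptor, was at 6.07, 5.94 and 6.77 in TG livers, against 3.94, 4.10 and 4.48 in WT livers, with the highest value in TG replicate 3. It rose by 2.09 (adjusted p = 0.0159) and no longer passed in 3 of the 6 fits that left out 1 array, with an adjusted p of up to 0.0971 (TG ND replicate 3 left out). The 8 markers that did not pass included Clec1b, another lectin of Kupffer cells and platelets, with 4.00, 4.73 and 4.91 in TG livers, against 5.11, 4.72 and 4.86 in WT livers (difference -0.35), the nuclear receptor Nr1h3 (0.11) and the iron exporter Slc40a1 (0.42, adjusted p = 0.306).

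The general macrophage markers that rose covered surface receptors, adhesion molecules and enzymes. Csf1r, the receptor for the growth factor CSF1 on which macrophages depend, was at 6.29, 6.18 and 6.98 in TG livers, against 4.91, 4.91 and 5.03 in WT livers. All TG arrays exceeded all WT arrays by more than 1, and the rise was 1.54 (SE 0.21, adjusted p = 0.000561). Cd68, a lysosomal glycoprotein of macrophages, was at 5.05, 5.63 and 5.56 in TG livers, against 3.50, 4.00 and 3.40 in WT livers and rose by 1.78 (SE 0.23, adjusted p = 0.000244). Axl, a receptor kinase for the bridging molecule Gas6 on dying cells, rose by 1.21 (adjusted p = 0.000102). Adgre1, which encodes the F4/80 antigen, was at 4.40, 4.56 and 4.99 in TG livers, against 3.62, 2.94 and 3.22 in WT livers. It rose by 1.39 (adjusted p = 0.0164) and no longer passed in 3 of the 6 fits that left out 1 array, with an adjusted p of up to 0.0999 (TG ND replicate 3 left out). The 11 that did not pass included the mannose receptor Mrc1 (0.35), the transcription factor Spi1 (0.65), Mertk (0.23) and lysozyme Lyz2 (0.60), with adjusted p-values of 0.488, 0.161, 0.802 and 0.537.

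Genes of a leukocyte integrin and of single Fc receptor chains also rose, while the inhibitory IgG receptor Fcgr2b differed by 0.01 (adjusted p = 0.995). Itgal, the alpha chain of the leukocyte integrin LFA-1, which no list held and which was singled out for its small p, was at 4.38, 4.19 and 4.44 in TG livers, against 2.73, 2.48 and 2.72 in WT livers. Its spread within groups was small, and the rise of 1.69 had an SE of 0.12 (adjusted p = 9.76e-08). Its partner chain Itgb2 was at 4.98, 4.48 and 5.36 in TG livers, against 2.85, 3.21 and 2.99 in WT livers and rose by 1.93 (adjusted p = 0.00122). The high-affinity IgG receptor Fcgr1 was at 3.65, 4.00 and 4.28 in TG livers, against 2.15, 2.12 and 2.15 in WT livers, with the 3 WT arrays almost equal, and rose by 1.84 (SE 0.24, adjusted p = 0.000306). The shared signalling chain Fcer1g rose by 1.13 (adjusted p = 0.0394) and no longer passed in 4 of the 6 fits that left out 1 array, with an adjusted p of up to 0.225 (TG ND replicate 3 left out).

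**Figure D2:**
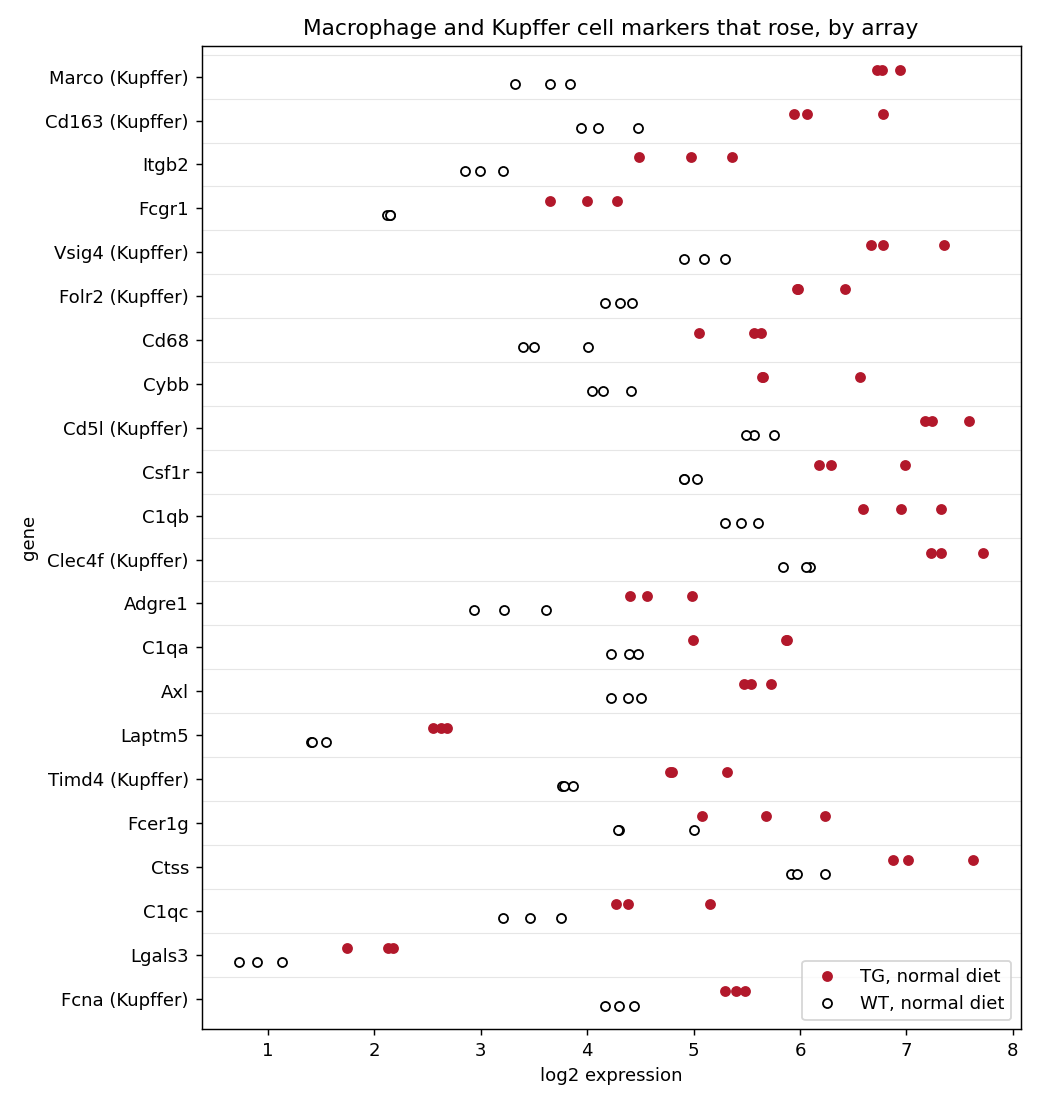
Log2 expression (horizontal axis) of the 22 markers of Kupffer cells (8) and of macrophages in general (14) that rose in TG livers, ordered by the size of the rise, with TG arrays as filled circles in the upper row and WT arrays as open circles in the lower row of each gene (n = 3 each). For every one of these genes the TG points lie to the right of the WT points.

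Of 32 complement genes 7 rose and none fell (median 0.20), against 0.924% of all genes that rose. Of the 7, 5 are also on the macrophage lists, the C1q chains, Fcna and Vsig4. The part of the macrophage markers in these rises was not tested. The 3 chains of C1q, the starter of the classical pathway, are neighbours on chromosome 4 of GRCm38.p6 and rose together. C1qb was at 6.59, 6.95 and 7.33 in TG livers, against 5.44, 5.61 and 5.30 in WT livers and rose by 1.51, C1qa rose by 1.22 and C1qc by 1.13 (adjusted p = 0.00268, 0.00508 and 0.0125). C1qc no longer passed in 3 of the 6 fits that left out 1 array, with an adjusted p of up to 0.0759 (WT ND replicate 3 left out). Properdin (Cfp), which stabilises the alternative pathway convertase, rose by 1.65 (adjusted p = 0.00129), and ficolin A (Fcna), a lectin of Kupffer cells, by 1.09 (adjusted p = 0.000746).

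C4a had the largest rise of the complement list, at 7.83, 7.71 and 7.97 in TG livers, against 4.01, 4.27 and 3.78 in WT livers. No array came near the other group, and the rise was 3.82 (SE 0.28, adjusted p = 2.3e-07). Its level in KO livers on ND was also high, with a mean of 6.85. C4a, the sex-limited protein, is nearly identical to C4b, so that probes may be shared. C4b itself was level, at 8.66, 8.60 and 9.05 in TG livers, against 8.66, 8.82 and 8.52 in WT livers (difference 0.10, adjusted p = 0.927). C2, the partner of C4 in the convertase, was higher in each TG array, at 7.28, 7.10 and 7.07 in TG livers, against 6.57, 6.37 and 6.43 in WT livers, with an adjusted p of 0.0578. It passed in none of the 6 fits that left out 1 array, but did so in 4 of the 7 other settings of the analysis, among them the fit to the 6 arrays alone (adjusted p = 0.0431).

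Of 26 genes of phagocytosis and the lysosome 6 rose and none fell (median 0.09), against 0.924% of all genes that rose. The macrophage markers, which share Laptm5 and Ctss with this list, rose in the same livers, and their part was not tested. Without TG ND replicate 3 the calls numbered 3. Cathepsin C (Ctsc), which activates serine proteases of leukocytes, was at 8.08, 8.27 and 8.55 in TG livers, against 6.88, 6.95 and 6.82 in WT livers and rose by 1.42 (SE 0.19, adjusted p = 0.000339). The macrophage proteins Laptm5 and cathepsin S (Ctss) rose by 1.16 and 1.13 (adjusted p = 0.00363 and 0.0074). Ctss no longer passed without TG ND replicate 3 (adjusted p 0.0538). Legumain (Lgmn) and the cholesterol carrier Npc2 rose by 0.85 and 0.57 (adjusted p = 0.0335 and 0.0335), and neither passed in 5 of the 6 fits that left out 1 array (adjusted p up to 0.141 and 0.153). Cathepsin E (Ctse), the sixth, is described with the genes that set WT livers apart.

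Markers of other leukocytes gave fewer calls than the macrophage lists, against 0.924% of all genes that rose. Among 14 genes of recruited monocytes Plac8 and Cd44 rose, by 0.88 and 1.22 (adjusted p = 0.0312 and 0.0393), and with 1 array left out Plac8 missed the threshold in 5 and Cd44 in all 6 fits (adjusted p up to 0.176 and 0.202). Ccr2, the receptor that brings monocytes out of the blood, was dim at 0.74, 0.88 and 1.48 in TG livers, against 0.90, 0.86 and 1.43 in WT livers, with overlapping groups and a difference of -0.03. Of 14 neutrophil genes 1 rose, Il1b, and the granule gene S100a8 stayed at 0.68 or below on all 6 arrays. None of 15 genes of T and NK cells, 10 of B and plasma cells, 10 of MHC class II and dendritic cells, and 21 of the sinusoidal endothelium passed. The medians of these 4 lists lay between 0.02 and 0.13, and that of the B and plasma cells was 0.19 without WT ND replicate 3. Without TG ND replicate 2, 2 of the T and NK cell genes passed. Lyve1, an endothelial hyaluronan receptor, was higher in each TG array, at 4.58, 5.05 and 4.25 in TG livers, against 3.69, 3.92 and 3.19 in WT livers, with an adjusted p of 0.39. Stab2, set with Lyve1 as a defining endothelial gene, was at 6.45, 6.46 and 6.46 in TG livers, against 6.45, 6.76 and 6.66 in WT livers. These groups overlapped, and the difference of -0.16 did not pass (adjusted p = 0.715).

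Of the 18 stellate cell genes 3 rose and none fell (median 0.35), against 0.924% of all genes that rose. None passed when the 6 arrays were fitted alone or without TG ND replicate 3. The count was 1 without TG ND replicate 2, WT ND replicate 1 or WT ND replicate 3. Decorin (Dcn), a small matrix proteoglycan, was at 8.36, 8.23 and 8.41 in TG livers, against 7.66, 7.75 and 7.77 in WT livers and rose by 0.60 (SE 0.11, adjusted p = 0.00935). It no longer passed without TG ND replicate 3 (adjusted p 0.0571). The WT arrays on ND were also below all 16 other arrays of the series for Dcn, with a mean of 8.09 in KO livers on ND. Reelin (Reln) and Ecm1, a matrix protein made by both stellate cells and hepatocytes, rose by 0.47 and 0.67 (adjusted p = 0.028 and 0.0369), and these calls were lost without 6 and 5 of the 6 arrays (highest adjusted p 0.124 and 0.195). Of the 18 genes 9 were higher in every TG array than in any WT array, against 8.14% of all genes, and 1 was lower. The defining genes Lrat and Des differed by -0.05 and 0.26 and overlapped. Hepatocyte genes were level, with none of 11 passing and a median of 0.02. Hnf4a, the master regulator of hepatocytes, was at 8.88, 9.11 and 9.06 in TG livers, against 8.95, 9.08 and 8.91 in WT livers. Of 10 bile duct genes 1 fell, against 0.379% of all genes that fell. This was Krt23, with a fall of 1.96 (adjusted p = 0.0146). It no longer passed in 4 of the 6 fits that left out 1 array, with an adjusted p of up to 0.0878 (TG ND replicate 3 left out). The defining Krt19 and Epcam stayed at 1.72 or below.

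Of 37 cytokine and chemokine genes 3 rose and none fell (median 0.35), against 0.924% of all genes that rose. Of the 37, 21 were higher in every TG array than in any WT array, against 8.14% of all genes. The part of the macrophages in these values was not tested. Il1b, the main secreted product of inflammasome activation, was at 3.12, 2.95 and 3.09 in TG livers, against 1.44, 1.80 and 1.01 in WT livers and rose by 1.64 (adjusted p = 0.0157); it no longer passed in 3 of the 6 fits that left out 1 array, with an adjusted p of up to 0.0919 (WT ND replicate 3 left out). Cxcl13, a chemokine that attracts B cells, was at 5.92, 6.54 and 7.35 in TG livers, against 4.43, 3.69 and 3.98 in WT livers. It rose by 2.57 (adjusted p = 0.0417) and no longer passed in 5 of the 6 fits that left out 1 array, with an adjusted p of up to 0.213 (TG ND replicate 3 left out). The adhesion molecule Vcam1 rose by 1.09 (adjusted p = 0.0481) and passed in none of the 6 fits that left out 1 array (adjusted p up to 0.257). With 1 array left out the calls in this list numbered 2 without TG ND replicate 1, 1 without TG ND replicate 2, WT ND replicate 1 or WT ND replicate 2, and 0 without TG ND replicate 3 or WT ND replicate 3. Tnf was dim in both groups, at 1.51, 0.73 and 0.76 in TG livers, against 0.72, 0.45 and 0.62 in WT livers (difference 0.40, adjusted p = 0.695). Ccr3, a chemokine receptor best known on eosinophils, was among the 15 largest rises, at 4.06, 4.70 and 4.96 in TG livers, against 1.88, 1.83 and 1.89 in WT livers, with a difference of 2.71 (SE 0.30, adjusted p = 4.29e-05).

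Acute-phase genes, which hepatocytes switch on in inflammation, rose in part. Of 27 measured, 5 rose and none fell (median 0.51), against 0.924% of all genes that rose. Of the 27, 21 had no overlap between higher TG and lower WT arrays, against the same 8.14% of all genes. The calls numbered 3 without TG ND replicate 1, TG ND replicate 3, WT ND replicate 1 or WT ND replicate 3, and 4 without either of the other arrays. The metallothioneins, small cysteine-rich proteins that bind zinc and copper, led. Mt2 was at 9.49, 8.53 and 9.52 in TG livers, against 4.41, 4.53 and 4.36 in WT livers. TG arrays exceeded the WT arrays by at least 4.00, and the rise was 4.75 (SE 0.64, adjusted p = 0.000361). Mt1 was at 7.47, 7.08 and 7.82 in TG livers, against 3.79, 3.88 and 4.16 in WT livers and rose by 3.51 (SE 0.50, adjusted p = 0.000718).

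Mt1 and Mt2 are neighbours on chromosome 8 of GRCm38.p6, and zinc induces both through metal response elements, the sites of the factor MTF1. Their RefSeq promoters, from 250 bases before to 50 after the start, are shown because the pair moved together; capitals mark every match to the core letters TGCACNC or TGCGCNC on either strand. The Mt1 window lies at chr8:94178839-94179138 and the Mt2 window at chr8:94172368-94172667, both on the plus strand.
Mt1: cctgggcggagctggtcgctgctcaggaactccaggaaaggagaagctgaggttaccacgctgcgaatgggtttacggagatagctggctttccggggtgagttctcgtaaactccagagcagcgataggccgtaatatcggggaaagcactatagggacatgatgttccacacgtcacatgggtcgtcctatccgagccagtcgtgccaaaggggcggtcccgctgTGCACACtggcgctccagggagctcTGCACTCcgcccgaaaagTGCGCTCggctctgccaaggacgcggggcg
Mt2: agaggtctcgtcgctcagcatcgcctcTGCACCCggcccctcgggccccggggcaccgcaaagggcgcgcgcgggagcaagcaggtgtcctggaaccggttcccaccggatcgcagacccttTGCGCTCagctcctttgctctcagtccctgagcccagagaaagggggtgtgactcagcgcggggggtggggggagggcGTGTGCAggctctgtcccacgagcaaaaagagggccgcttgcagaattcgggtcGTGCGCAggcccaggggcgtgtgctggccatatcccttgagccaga
The Mt1 window held 3 matches, all on its own strand, and the Mt2 window 4, with 2 on each strand, and none of them overlapped. Of 32851 promoters of the same length 25.7% held at least 1 match, 1.97% at least 3 and 0.517% at least 4. A match is a run of letters and not a measured binding site.

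Other acute-phase genes spread more. Lipocalin 2 (Lcn2), which keeps iron from bacteria, was at 7.79, 6.30 and 7.35 in TG livers, against 2.82, 3.82 and 3.61 in WT livers and rose by 3.73 (SE 0.66, adjusted p = 0.0054). Serum amyloid Saa3 was at 6.31, 5.21 and 5.69 in TG livers, against 3.42, 3.99 and 3.76 in WT livers and rose by 2.02 (adjusted p = 0.0165); it no longer passed in 4 of the 6 fits that left out 1 array, with an adjusted p of up to 0.0894 (TG ND replicate 1 left out). The zinc and iron importer Slc39a14 rose by 0.78 (adjusted p = 0.0481) and passed in none of the 6 fits that left out 1 array (adjusted p up to 0.256). Orm2, an orosomucoid, had no overlap, at 9.50, 8.32 and 8.68 in TG livers, against 5.52, 5.93 and 5.56 in WT livers, but a wide SE of 0.83 across the series left its difference of 3.16 at an adjusted p of 0.0778. Constitutively bright members moved little: haptoglobin (Hp) differed by 0.29, hemopexin (Hpx) by 0.40 and the fibrinogen chain Fgb by 0.13, and none of these passed (adjusted p = 0.655, 0.314 and 0.839).

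Interferon-response genes, which cells switch on against viruses, rose in part. Of 34 measured, 8 rose and none fell (median 0.49), against 0.924% of all genes that rose. A positive difference was found for 30, and 16 had no overlap with TG higher, against 8.14% of all genes. Ifi27, a mitochondrial interferon-induced protein, was at 7.55, 8.02 and 7.49 in TG livers, against 5.62, 6.21 and 5.99 in WT livers and rose by 1.75 (SE 0.19, adjusted p = 3.38e-05). Bst2, which tethers budding viruses to the membrane, was at 8.41, 8.55 and 8.56 in TG livers, against 6.35, 6.26 and 6.16 in WT livers. Both groups were tight and far apart, and the rise was 2.25 (SE 0.27, adjusted p = 0.000125). These 2 genes kept their calls without each of the 6 arrays. Zbp1, a sensor of left-handed DNA and RNA, rose by 1.07, the interferon regulator Irf7 by 1.06, and Stat2, a subunit of the factor ISGF3 that drives these genes, by 0.70 (adjusted p = 0.0159, 0.0164 and 0.0242). The eighth was Iigp1, a GTPase against vacuolar parasites, with a rise of 0.63 (adjusted p = 0.0484; it no longer passed in 5 of the 6 fits that left out 1 array, with an adjusted p of up to 0.264 (TG ND replicate 3 left out)).

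The smaller rises were less stable. Zbp1, Irf7 and Stat2 each lost their calls without 5 of the 6 arrays (highest adjusted p 0.0919, 0.0859 and 0.104). Mx2, a GTPase that blocks viruses, rose by 1.42 and the ISG15 protease Usp18 by 1.39 (adjusted p = 0.0247 and 0.0384), with the highest adjusted p 0.129 and 0.19 when 1 array was left out. For Irf7 the scatter was on the WT side, with 5.91, 5.84 and 5.87 in TG livers, against 4.31, 5.40 and 4.73 in WT livers. Leaving out 1 array took the number of interferon genes that passed to between 2, without TG ND replicate 2 or WT ND replicate 3, and 5, without TG ND replicate 1 or WT ND replicate 2; it was 4 without TG ND replicate 3 and 3 without WT ND replicate 1. Rtp4 and Oas2 did not pass (difference 0.94 and 1.26, adjusted p = 0.0589 and 0.0682).

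Promoters in the RefSeq table were found for 3 of the 8 interferon genes that rose, Bst2, Irf7 and Stat2. Interferon response elements, the sites of ISGF3 and the interferon regulatory factors, hold a repeated GAAA, searched here as GAAANNGAA on both strands. The windows of Bst2 (chr8:71537423-71537722, minus strand) and Stat2 (chr10:128270248-128270547, plus strand) held a match and are shown, with the matches in capitals.
Bst2: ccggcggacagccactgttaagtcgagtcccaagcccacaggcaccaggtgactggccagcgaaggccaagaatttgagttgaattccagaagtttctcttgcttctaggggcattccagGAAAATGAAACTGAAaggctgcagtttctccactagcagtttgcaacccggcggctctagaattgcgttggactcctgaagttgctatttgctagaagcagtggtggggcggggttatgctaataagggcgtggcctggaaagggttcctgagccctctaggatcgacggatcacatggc
Stat2: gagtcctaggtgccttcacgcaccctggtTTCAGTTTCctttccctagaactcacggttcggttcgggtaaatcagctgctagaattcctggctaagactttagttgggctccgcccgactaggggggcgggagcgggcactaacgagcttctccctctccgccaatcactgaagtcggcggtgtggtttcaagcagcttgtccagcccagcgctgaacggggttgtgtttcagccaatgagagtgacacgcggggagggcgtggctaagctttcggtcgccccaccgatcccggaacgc
Bst2 held 2 matches, which overlap each other, and Stat2 1 on the opposite strand, while these letters are not in the Irf7 window. Among the 32851 promoters 8.56% held at least 1 match and 0.624% at least 2.

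**Figure D3:**
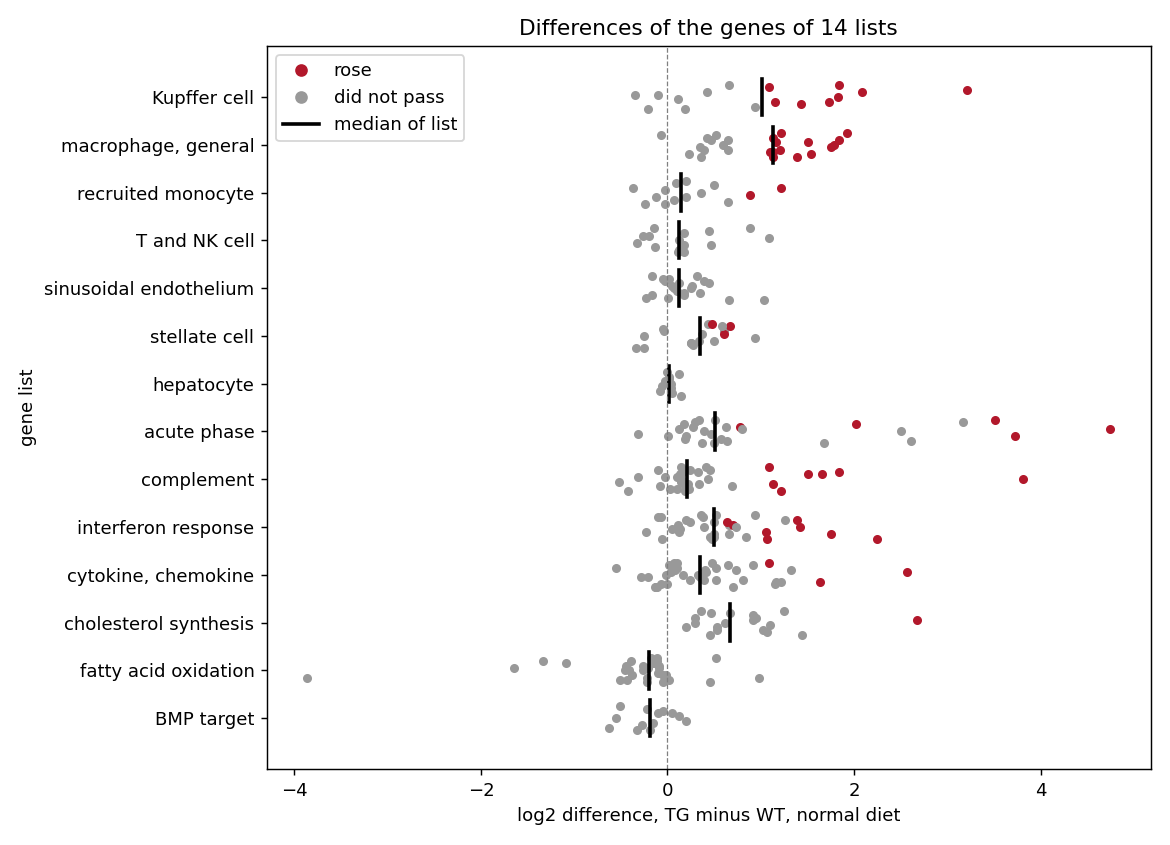
Log2 difference, TG minus WT on the normal diet (horizontal axis), of every measured gene of 14 gene lists (rows), with genes that rose as red points and all others in grey, and a black bar at each list's median. Red points are most frequent in the macrophage and Kupffer cell rows, and the hepatocyte row is centred near 0.

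Cholesterol synthesis genes lay higher in TG livers, but all except 1 missed the threshold. Of 19 genes 1 rose, against 0.924% of all genes that rose. All 19 had a positive difference, 11 had no overlap, against 8.14% of all genes with TG higher, and the median was 0.67. Squalene epoxidase (Sqle), a control point of the pathway, was at 6.72, 7.01 and 6.23 in TG livers, against 2.98, 3.94 and 4.99 in WT livers. WT arrays spanned more than 2 on the log2 scale, the highest being WT replicate 3, and the rise was 2.68 (SE 0.60, adjusted p = 0.0304). It no longer passed in 5 of the 6 fits that left out 1 array, with an adjusted p of up to 0.146 (WT ND replicate 1 left out). Srebf2, the transcription factor of the pathway, was at 6.59, 6.69 and 6.39 in TG livers, against 5.89, 6.12 and 6.07 in WT livers (difference 0.53, adjusted p = 0.0728). Squalene synthase (Fdft1) was at 8.76, 8.76 and 8.28 in TG livers, against 6.91, 7.32 and 7.84 in WT livers (difference 1.25, adjusted p = 0.0804).

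WT replicate 3 was the highest WT array for Sqle, for Fdft1 and for lanosterol demethylase (Cyp51), which was at 7.55, 7.72 and 7.03 in TG livers, against 5.49, 5.86 and 6.61 in WT livers. The rate-setting synthase Hmgcs1 was at 9.92, 9.89 and 9.48 in TG livers, against 8.26, 8.73 and 9.23 in WT livers (difference 1.02, adjusted p = 0.448). Without WT ND replicate 3 the list's median was 0.85, and over the other 5 arrays left out in turn it was between 0.54 and 0.85. Cyp7a1, which turns cholesterol into bile acids, was at 8.68, 8.47 and 8.00 in TG livers, against 6.88, 6.95 and 6.70 in WT livers. The groups were apart by 1.05, and its difference of 1.54 missed the threshold (adjusted p = 0.0634); it passed when only the 6 arrays were fitted (adjusted p = 0.00786) and when dim genes were left out (adjusted p = 0.0414), and in none of the 6 fits that left out 1 array. It was among the 26 genes of bile acid synthesis and transport, none of which passed, while 1, another gene, did so without WT ND replicate 3.

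A pair of genes of fatty acid uptake and storage fell. Cd36, the fatty acid translocase that is low in healthy hepatocytes and rises in fatty liver, was at 6.46, 6.32 and 6.40 in TG livers, against 7.38, 7.80 and 7.88 in WT livers. TG arrays were tight and below WT, and the fall was 1.30 (SE 0.26, adjusted p = 0.0142). It no longer passed in 4 of the 6 fits that left out 1 array, with an adjusted p of up to 0.0747 (WT ND replicate 3 left out). The lipid droplet coat protein Plin3 was at 4.42, 4.39 and 4.15 in TG livers, against 4.96, 5.02 and 5.21 in WT livers and fell by 0.74 (SE 0.13, adjusted p = 0.00416). These were the 2 falls among 24 lipid droplet genes, against 0.379% of all genes that fell. The list's median was -0.18, and -0.32 without WT ND replicate 1. Plin2, the main droplet coat of liver, overlapped (difference -0.47), and Plin4 was lower in each TG array (difference -1.34, adjusted p = 0.0911). Lipoprotein lipase (Lpl), on the same list, went the other way, at 5.28, 4.82 and 5.14 in TG livers, against 4.76, 3.67 and 3.22 in WT livers. Its arrays did not overlap, and the difference of 1.20 did not pass (adjusted p = 0.264). On HFD Lpl rose by 1.67 (adjusted p = 0.0232).

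None of 32 genes of fatty acid oxidation passed, although 28 had a negative difference, 11 had no overlap with TG lower, against 7.62% of all genes, and the median was -0.20. Cyp4a14, an omega-hydroxylase induced by PPAR-alpha, scattered most, at 1.86, 6.68 and 3.91 in TG livers, against 7.58, 7.94 and 8.52 in WT livers (difference -3.86, adjusted p = 0.0925). It passed without TG ND replicate 2, as did 1 other gene of the list (2 in all). The mitochondrial carnitine transferase Cpt2 was at 7.55, 7.64 and 7.34 in TG livers, against 7.90, 7.86 and 7.91 in WT livers (difference -0.38, adjusted p = 0.302). Of 26 lipogenic genes none passed, Scd1 being lower in each TG array by 0.65 (adjusted p = 0.467). Among 20 glucose genes 1 passed, the alanine transaminase Gpt, which fell, against 0.379% of all genes that fell. It was at 6.81, 6.98 and 6.85 in TG livers, against 7.50, 7.62 and 7.62 in WT livers. The fall was 0.70 (SE 0.13, adjusted p = 0.0061).

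Enzymes of drug and steroid metabolism changed in both directions. Of 50 cytochrome P450 genes 3 fell and none rose (median -0.13), against 0.379% of all genes that fell. Cyp2c55 and Cyp2c37, arachidonic acid epoxygenases of the Cyp2c family, lie on chromosome 19. Cyp2c55 was at 2.90, 3.14 and 3.16 in TG livers, against 5.87, 6.52 and 6.21 in WT livers and fell by 3.13 (SE 0.34, adjusted p = 3.53e-05). Cyp2c37 was at 6.77, 5.79 and 6.59 in TG livers, against 8.40, 9.04 and 8.75 in WT livers and fell by 2.35 (SE 0.28, adjusted p = 0.000125). Members of this family are close in sequence and may share probes, and Cyp2c29 on the same chromosome, among the brightest, differed by -0.08.

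Cyp17a1, the steroid 17-hydroxylase, was at 1.68, 1.03 and 1.59 in TG livers, against 6.28, 4.10 and 3.45 in WT livers, with WT replicate 1 well above the other WT arrays. It fell by 3.18 (SE 0.69, adjusted p = 0.0248) and no longer passed in 5 of the 6 fits that left out 1 array, with an adjusted p of up to 0.122 (WT ND replicate 1 left out). The phenobarbital-inducible Cyp2b9, Cyp2b10 and Cyp2b13 overlapped between the groups because WT replicate 1 lay within the range of the TG arrays, below the other WT arrays. Cyp2b10 was at 1.92, 0.59 and 1.93 in TG livers, against 1.42, 5.18 and 4.28 in WT livers. Their differences of -3.35, -2.15 and -1.94 did not pass with all arrays (adjusted p = 0.108, 0.128 and 0.0874) and did without WT ND replicate 1 (adjusted p = 0.00752, 0.000295 and 4.69e-06).

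Of 57 conjugating and redox genes 3 rose and 2 fell (median -0.13), against 0.924% of all genes that rose and 0.379% that fell. Gstp3, a glutathione transferase of the pi class, was at 11.09, 11.06 and 11.18 in TG livers, against 6.75, 7.39 and 6.33 in WT livers. No array lay between 7.39 and 11.06, and the rise was 4.29 (SE 0.36, adjusted p = 1.33e-06). Of the same family, Gstp1 was at 11.24, 11.46 and 10.83 in TG livers, against 11.63, 11.38 and 11.63 in WT livers and Gstp2 at 7.47, 7.62 and 7.39 in TG livers, against 7.63, 7.01 and 7.47 in WT livers. These groups overlapped, with differences of -0.37 and 0.12 (adjusted p = 0.792 and 0.943). Ces1g, a carboxylesterase of the endoplasmic reticulum, was at 8.95, 8.52 and 8.80 in TG livers, against 6.04, 7.07 and 6.68 in WT livers and rose by 2.16 (SE 0.39, adjusted p = 0.00585). Haem oxygenase Hmox1, which Kupffer cells use to recycle iron, was at 5.48, 5.90 and 5.64 in TG livers, against 4.57, 4.18 and 4.98 in WT livers and rose by 1.09 (adjusted p = 0.024); it no longer passed in 4 of the 6 fits that left out 1 array, with an adjusted p of up to 0.142 (WT ND replicate 2 left out).

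The drug exporter Abcb1b was at 0.38, 0.22 and 0.90 in TG livers, against 4.24, 2.34 and 2.64 in WT livers, dim in all TG arrays, and fell by 2.57 (adjusted p = 0.0228); it no longer passed in 4 of the 6 fits that left out 1 array, with an adjusted p of up to 0.117 (WT ND replicate 1 left out). The monooxygenase Fmo1 fell by 0.82 (adjusted p = 0.00579). Among 25 genes higher in female than in male mouse liver, the transporters Slc22a26 and Abcd2 rose by 2.08 and 2.42 and Cyp17a1 fell. Of all genes 0.924% rose and 0.379% fell. The 2 rises were lost without 5 of the 6 arrays each (highest adjusted p 0.134 and 0.105). None of 26 male-biased genes passed, against 2 without TG ND replicate 2 and 1 without WT ND replicate 1. Clock genes, 19 in number, gave no call (2 without WT ND replicate 2), and Dbp, the output gene with the smallest p, was at 4.85, 5.11 and 5.44 in TG livers, against 6.19, 5.36 and 6.85 in WT livers (adjusted p = 0.0679), passing without WT ND replicate 2 (adjusted p = 0.00196).

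Of the 13 rises of at least 3, 1 was a predicted gene, 2610507I01Rik, at 5.68, 5.64 and 5.59 in TG livers, against 1.20, 2.11 and 1.17 in WT livers, and of the 7 falls of at least 3, 3 were predicted genes or pseudogenes. Several other large changes belonged to no list. Zfp872, a zinc finger gene, had 3.30, 6.27 and 6.57 in TG livers, against 1.55, 1.95 and 1.25 in WT livers, with TG replicate 1 well below the other TG arrays; it rose by 3.79 (adjusted p = 0.0316) and no longer passed in 5 of the 6 fits that left out 1 array, with an adjusted p of up to 0.177 (TG ND replicate 3 left out). Corin, a protease that activates natriuretic peptides and is best known in heart, was at 4.94, 4.18 and 5.12 in TG livers, against 2.21, 1.87 and 2.25 in WT livers and rose by 2.64 (SE 0.24, adjusted p = 6.54e-06). Slc7a8, an amino acid transporter, was at 5.02, 5.64 and 5.60 in TG livers, against 3.33, 3.27 and 1.70 in WT livers, with WT replicate 3 the lowest, and rose by 2.65 (adjusted p = 0.000102). Moxd1, a relative of dopamine beta-hydroxylase, was at 4.66, 4.69 and 4.50 in TG livers, against 1.67, 1.04 and 1.26 in WT livers and rose by 3.29 (adjusted p = 0.0179); it no longer passed in 5 of the 6 fits that left out 1 array, with an adjusted p of up to 0.0822 (WT ND replicate 2 left out).

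Among the falls Clec2h, a lectin-like ligand of the C-type family, had the largest difference, -5.06, with 1.38, 1.37 and 2.29 in TG livers, against 7.20, 6.24 and 6.76 in WT livers (SE 0.65, adjusted p = 0.000244). Tiam2, an activator of the GTPase Rac1, was at 0.59, 0.57 and 0.55 in TG livers, against 3.36, 2.76 and 3.78 in WT livers and fell by 2.73 (SE 0.45, adjusted p = 0.00268). Mug2, a murinoglobulin that traps proteases, was at 7.60, 6.97 and 7.08 in TG livers, against 9.68, 9.57 and 9.22 in WT livers and fell by 2.27 (SE 0.22, adjusted p = 7.35e-06). Mug2, the predicted Gm10319 and the pseudogene Mug-ps1 were 3 adjacent tested genes on chromosome 6 that fell together, the last by 0.86, while Mug1 of the same family differed by -0.09; probes may be shared among them. Hspe1, the mitochondrial chaperonin cofactor, fell by 2.17 (adjusted p = 0.0126) and no longer passed in 3 of the 6 fits that left out 1 array, with an adjusted p of up to 0.0782 (TG ND replicate 3 left out).

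The other groups of the series were used to describe on which side a difference lay. Clock genes stood at other levels in them than in TG and WT livers on ND. Usp2, a rhythmic protease gene, averaged 3.63 in TG and 3.19 in WT livers on ND, with 7.25 in KO livers on ND and 6.69 and 6.16 in TG and WT livers on HFD. The clock-controlled kinase gene Wee1 averaged 1.97 in TG and 2.21 in WT livers on ND, with 5.43, 5.07 and 5.27 in those groups. Arntl, the core clock activator BMAL1, ran the other way, with 6.03 in TG and 5.53 in WT livers on ND and 3.66, 3.54 and 2.99 in those groups. The part of the clock in what these groups show, and in the difference between diets, was not tested. The 7 TG arrays of both diets were above all 12 WT and KO arrays for 56 of the 205 genes that rose, against 0.361% of all genes, and below them all for 20 of the 84 that fell, against 0.252%. For another set it was the 3 WT arrays on ND that stood alone: they were below all 16 other arrays for 31 of the 205, against 0.5% of all genes, and above them for 26 of the 84, against 0.564%. Kcp, Marco, Clec4f, Csf1r, Bst2 and C4a belonged to the first set. The second held Ctse, Mme, Asic5, Rpl3, Rps3a1, Mt2, Lcn2, Tgfbr2 and Tgfbi. Both counts use the ND arrays that chose the genes and are given as a description.

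Ctse, an aspartic protease of immune and gut cells, was at 7.17, 6.76 and 6.88 in TG livers, against 1.44, 2.04 and 2.01 in WT livers, with means of 6.94 and 8.34 in TG and WT livers on HFD and 6.23 in KO livers on ND. Its rise of 5.11 (SE 0.33, adjusted p = 4.54e-08) was the largest of all genes. Mme, the peptidase neprilysin, was at 6.28, 6.04 and 6.76 in TG livers, against 3.38, 2.71 and 2.12 in WT livers, against means of 6.79, 7.39 and 7.69 in the same other groups, and rose by 3.62 (adjusted p = 3.25e-05). Asic5, an ion channel opened by bile acids, was at 3.85, 3.66 and 4.32 in TG livers, against 7.47, 7.84 and 7.80 in WT livers, with 4.27, 4.39 and 4.75 in those groups. It fell by 3.76 (SE 0.19, adjusted p = 1.01e-09). For all 3 genes the WT ND arrays were the ones that stood apart.

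Of 23 genes of cytosolic ribosomal proteins Rpl3 alone passed, and it rose, against 0.924% of all genes that rose. Rpl3 was at 8.43, 8.30 and 8.16 in TG livers, against 5.48, 4.92 and 5.22 in WT livers. It rose by 3.09 (SE 0.22, adjusted p = 1.14e-07). Rps3a1, a ribosomal protein gene outside that list, was at 5.52, 5.80 and 6.10 in TG livers, against 7.76, 7.27 and 7.51 in WT livers and fell by 1.71 (adjusted p = 0.000263). Both genes have processed copies in the genome whose transcripts could share probes. Rian, a long RNA of the imprinted Meg3 domain on chromosome 12, was at 1.04, 1.07 and 0.74 in TG livers, against 3.23, 2.32 and 2.90 in WT livers and fell by 1.87 (adjusted p = 3.53e-05). The small RNA AF357425 of the same domain was at 1.12, 1.78 and 2.11 in TG livers, against 4.27, 4.06 and 3.70 in WT livers and fell by 2.34 (adjusted p = 0.000244), while Meg3 itself was dim in both groups, with a difference of 0.01. Rian and AF357425 were singled out after their values were seen.

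**Figure D4:**
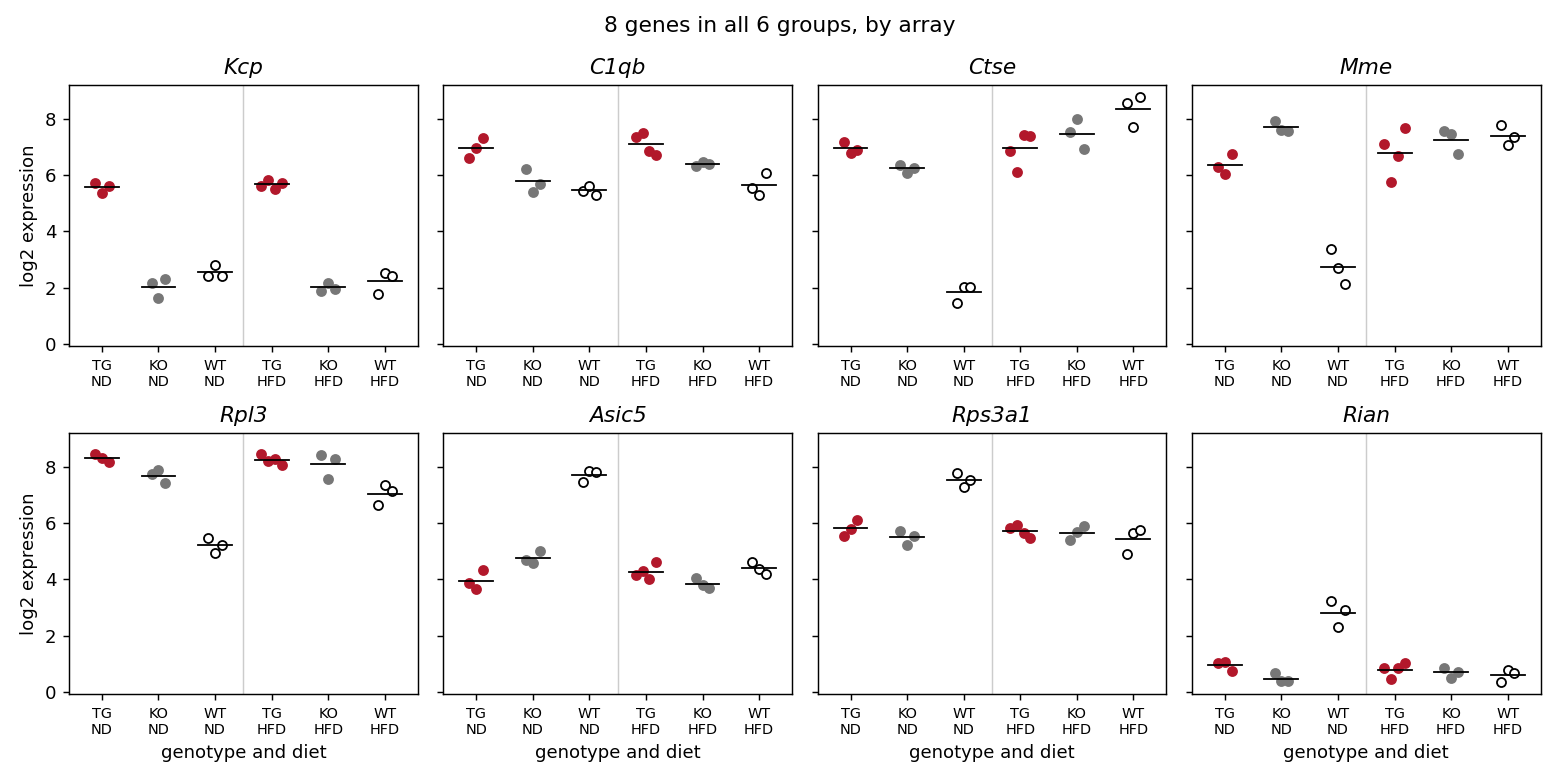
Log2 expression (vertical axis) of 8 genes in all 6 groups, from left to right TG, KO and WT livers on the normal diet and TG, KO and WT livers on the high-fat diet, 1 point an array and a bar at each mean (n = 3 each, 4 for TG on the high-fat diet). Ctse, Mme and Rpl3 are low and Asic5, Rps3a1 and Rian high in WT livers on the normal diet, while Kcp and C1qb are high in both TG groups.

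The TG and WT arrays on HFD are other samples, and they gave the same contrast on another diet. There 791 genes passed (3.57%), against 248 when only those 7 arrays were fitted, 401 without WT HFD replicate 1 and 456 without WT HFD replicate 3. Of the 205 genes that rose on ND, 106 rose on HFD too (background 1.68%), which is 51.7% of them and 28.4% of the 373 that rose on HFD. Of the 84 that fell, 39 fell on HFD (background 1.88%), 46.4% of them and 9.33% of the 418 falls there. Ctse was the 1 gene that passed in opposite directions. Signs were shared by 184 of the 205 and 70 of the 84, whether they passed or not, and across all genes the differences on ND and on HFD correlated with r = 0.43; genes are not independent replicates.

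Macrophage genes kept their rise on HFD. All 22 of the macrophage and Kupffer cell markers that rose on ND also rose there. Marco averaged 5.54 in TG and 1.79 in WT livers on HFD (difference 3.75), Clec4f 7.69 and 6.27 (difference 1.42) and Csf1r 6.40 and 4.85 (difference 1.55), with adjusted p-values of 1.62e-05, 0.000124 and 0.000249. Mt2 rose by 4.17 on HFD and Gstp3 by 3.80 (adjusted p = 0.000563 and 5.69e-06). Cd36 fell by 2.31 and Cyp17a1 by 5.19 (adjusted p = 3.17e-05 and 0.000173).

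The cholesterol list had a median of 0.67 on ND and of -0.16 on HFD. Its member Hmgcs1 differed by -1.25 on HFD (adjusted p = 0.129). Sqle averaged 5.65 in TG and 5.60 in WT livers on HFD (difference 0.05), and Cyp7a1 8.70 and 8.70 (difference 0.00). The test of the difference between diets did not pass for either (adjusted p = 0.366 and 0.443), nor for Inhba (0.60 on HFD, adjusted p of the difference between diets 0.47) or Tgfbr2 (0.33, 0.387). For Gpt, which fell on ND, the difference on HFD was 0.00 (adjusted p of the difference between diets 0.151).

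The difference between diets itself passed for 49 genes (0.221%). With 1 array left out that count was 22 without TG ND replicate 1 or WT ND replicate 2, 23 without WT ND replicate 3, 24 without WT HFD replicate 1, 27 without TG ND replicate 3, 31 without TG ND replicate 2 and 32 without WT ND replicate 1. Of the 49, 21 passed on ND and not on HFD, 26 on HFD and not on ND, and 2 on both, and the WT ND arrays were below or above all others for 19. Leaving out predicted genes and non-coding RNAs, the 10 of smallest p were Ctse, Asic5, Mme, Abca3, Nt5e, Tmem260, Ide, Rps3a1, Slc22a27 and Dtd2. Abca3, a lipid transporter, was at 7.12, 7.19 and 7.23 in TG livers, against 5.66, 5.75 and 6.01 in WT livers, with a rise of 1.37 on ND (adjusted p = 9.5e-05) and a difference of -0.33 on HFD (adjusted p of the difference between diets 0.00167). Nt5e, which makes adenosine outside the cell, and Ide, the insulin-degrading protease, differed by 0.24 and 0.02 on ND, and fell by 2.14 and 0.88 on HFD (adjusted p of the difference between diets 0.00331 and 0.00633). Rpl3 rose on both diets, by 3.09 on ND and 1.21 on HFD (adjusted p of the difference 0.00947).

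**Figure D5:**
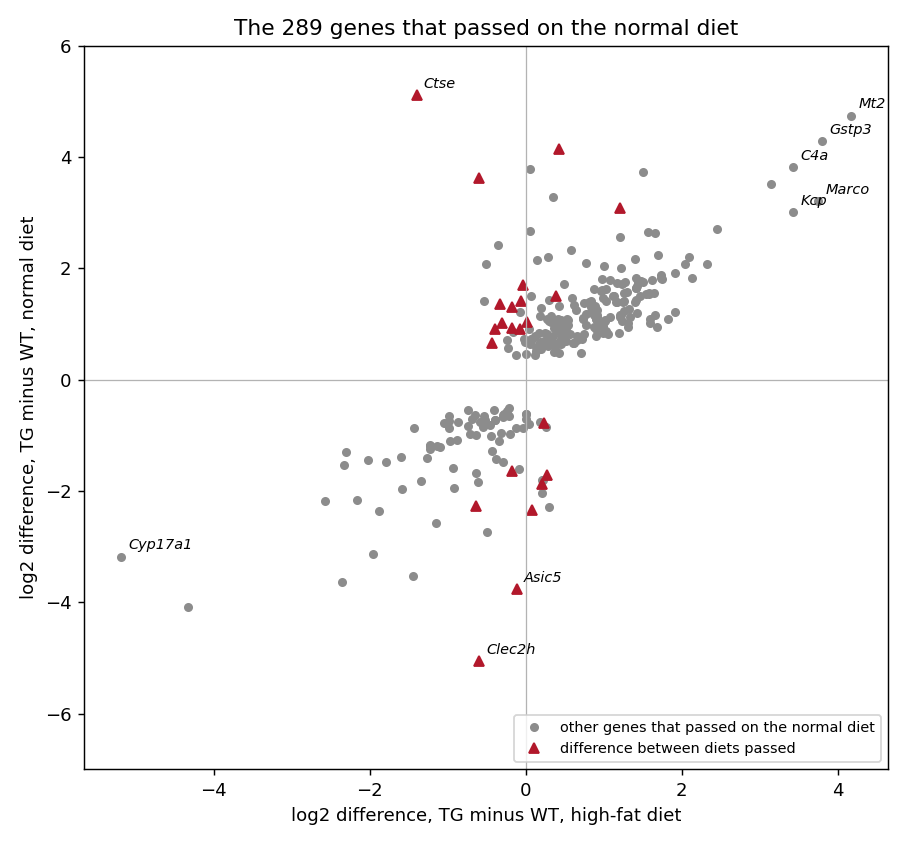
Log2 difference, TG minus WT, on the normal diet (vertical axis) against that on the high-fat diet (horizontal axis) for the 289 genes that passed on the normal diet, with the 23 for which the difference between diets passed as red triangles. Most points lie in the upper right or lower left part, and Ctse, at 5.11 and -1.40, is the highest point.

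KO livers on ND were compared with the same WT arrays, so only levels are set side by side. Marco averaged 6.81 in TG, 1.84 in KO and 3.60 in WT livers on ND, and Clec4f 7.42, 6.18 and 6.00. Gstp3 averaged 11.11 in TG, 11.62 in KO and 6.82 in WT livers, and Mt2 9.18, 7.64 and 4.43. In KO livers Clec4f was thus near its WT level and Marco below it, while Gstp3 and Mt2 were high in both TG and KO livers.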

How the data were processed

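The authors deposited 1 table of log2 values for 41345 probe sets and 19 arrays. Per the submitters' processing notes the affy and limma packages and the RMA method were named, with no version, role or order, and the genome build and the log base are not given in the sources used here; values from -0.93 to 12.51 were read as log2. Probe sets were named through the platform annotation, which gives 23521 a single symbol, 1814 several and 16010 none, and the probe set of highest mean over all arrays stood for each of 22180 genes. No further normalization was applied.

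A linear model of 6 group means was fitted to all arrays with limma 3.58.1 in R 4.3.3 (13 residual degrees of freedom), and moderated tests were adjusted by Benjamini and Hochberg over all genes. Labels give no batch, litter or scan date, and nothing beyond the titles says that the replicates are separate animals, so p-values measure the spread between these samples. Intensities of the scanner were not used here, and the number of arrays limits the precision. The fit was also run on simulated data with known changes. Those were drawn independently for each gene, with a single spread per gene for all groups. The run therefore does not test how unequal spreads between groups affect the calls. The members and lists were chosen with earlier results of these data known. Named genes were the 15 largest rises and falls that passed, up to 6 called and 3 other members of smallest p of each list, set members of the BMP system, and the 10 smallest p for the difference between diets; 2610507I01Rik, AF357425, Arntl, C4b, Cd163, Clec1b, Cpt2, Cyp2c29, Cyp51, Fcer1g, Fcgr2b, Hmgcs1, Hp, Hpx, Iigp1, Itgal, Lyz2, Meg3, Mertk, Nr1h3, Plin2, Rian, Smo, Usp2, Usp18 and Wee1 were added after their values were seen. Promoters came from the RefSeq table for GRCm38.p6, which also gave the order of genes (21994 of 22180 matched). Proteins were not used here. Alternatives covered the arrays and genes fitted, scaling, quantile normalization, the variance prior, the choice of probe set and leaving out each array.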

Additional observations from a re-analysis of the deposited data

Results flagged for a closer look

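The difference between TG and WT was itself different between diets for 17 of the named genes, by the test of that difference over all 22180 genes (limma, Benjamini-Hochberg). The values here are the TG minus WT difference on ND less that on HFD, on the log2 scale. It was 6.51 for Ctse (adjusted p = 4.93e-07), 4.22 for Mme (0.00128), 3.94 for the organic anion transporter gene Slc22a27 (0.00943) and 3.72 for the predicted 2610507I01Rik (9.21e-07). Smaller positive values were those of Nt5e at 2.38 (0.00331), Rpl3 at 1.88 (0.00947), Abca3 at 1.70 (0.00167) and Dtd2 at 1.32 (0.00943). Cyp2c29 stood at 1.24 (0.00947), Tmem260 at 1.02 (0.00331) and Ide at 0.89 (0.00633). For genes with a fall on ND the value was -4.46 for Clec2h (0.044), -3.64 for Asic5 (4.93e-07), -2.42 for AF357425 (0.0152), -2.07 for Rian (0.00231), -1.99 for Rps3a1 (0.00817) and -1.63 for Mug2 (0.0257).

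Outside the genes with a single symbol, 70 of 17824 probe sets passed in TG livers against WT livers on ND (0.393%), of which 37 were higher and 33 lower in TG livers; the annotation gives them no symbol or several.

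Among the 4 TG arrays on HFD, 1 was far above the other 3 for the rhythmic gene Usp2, at 7.28 on the log2 scale, by Dixon's test, which flags about 1 in 20 groups by chance.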

How the results depend on the processing

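With all probe sets tested, the counts fell to 182 genes on ND (131 rises and 51 falls), 518 on HFD and 24 for the difference between diets. With only the compared arrays, HFD gave 248 genes against 791 with all arrays, and ND gave 249 against 289. What lowered these counts was not tested. Under the other settings the ND total lay within 1.5 times 289. The genes kept of the 289 numbered 185 with only the compared arrays, 244 with dim genes left out, 281 after shifting medians, 275 after quantile normalization, 274 with an intensity trend, 280 with averaged probe sets, and 152 to 190 with 1 array left out. Leaving out 1 array gave 165 to 226 genes on ND (111 to 164 rises, 53 to 76 falls), 401 to 865 on HFD and 22 to 67 for the difference between diets; the cause was not tested. No named gene reversed. Medians of the 45 lists were taken again after shifting medians, after quantile normalization and with 1 ND array left out. For 1 list with a median of at least 0.1 in size the sign changed in at least 1 of these. Of 360 such medians, 16 moved by at least the larger standard deviation of the list mean among TG or WT arrays on ND. Among the 90 named calls, 30 were lost under at least 1 of the 7 settings and 38 without at least 1 array. C1qa was lost when the 6 arrays were fitted alone. The calls per list were added after seeing the data. No paired analysis was possible because the sample titles carry no shared replicate numbers. Dim signal limits what can be seen: 56.5% of genes had a mean below 2.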

Other observations

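Further gene lists gave at most 1 call each on ND, against 1.3% of all genes that passed. Of 26 genes of the unfolded protein and integrated stress responses 1 rose, Derl3, which helps to remove misfolded proteins from the endoplasmic reticulum, with 3.44, 4.21 and 4.21 in TG livers, against 2.79, 2.65 and 3.11 in WT livers. The TG arrays lay above the WT arrays, and the rise was 1.10 (SE 0.23, limma adjusted p = 0.0169); it no longer passed in 4 of the 6 fits that left out 1 array, with an adjusted p of up to 0.1 (TG ND replicate 3 left out). Among 13 heat shock genes Hspe1 fell, at 3.75, 2.93 and 2.60 in TG livers, against 5.36, 5.31 and 5.13 in WT livers. Hspd1 of the same list, added after its value was seen, was level. It was at 8.70, 8.67 and 8.78 in TG livers, against 8.81, 8.61 and 8.83 in WT livers (difference -0.03, adjusted p = 0.97). Of 24 protease inhibitors Mug2 fell, and of 13 periportal genes Ctsc alone passed, and it rose. Ctsc is also among the genes of phagocytosis and the lysosome given above, and the part of the macrophages in its rise was not tested. None passed among 23 proliferation genes, 15 pericentral genes, 28 genes of the respiratory chain and 32 nuclear receptors and their cofactors.

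Cyclin D1 (Ccnd1), which drives entry into the cell cycle, was at 4.00, 4.65 and 4.59 in TG livers, against 3.62, 3.76 and 3.63 in WT livers. Its groups did not overlap, and the difference of 0.74 did not pass (adjusted p = 0.442). The WT arrays on ND were also below all 16 other arrays of the series for Ccnd1, with a mean of 3.91 in KO livers on ND. Nr1i3, the xenobiotic receptor CAR that controls the Cyp2b and Cyp2c genes, was at 7.12, 6.78 and 7.20 in TG livers, against 7.14, 8.21 and 8.10 in WT livers, with WT replicate 1 among the TG arrays (difference -0.79, adjusted p = 0.303). Ppargc1b, a coactivator of oxidative metabolism, was at 3.10, 2.92 and 3.29 in TG livers, against 4.24, 3.21 and 4.21 in WT livers (difference -0.78, adjusted p = 0.0578).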
